A study of Mus musculus with 4 samples.

Results

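The genes of the transforming growth factor beta (TGF-beta) pathway were followed in mouse astrocytes, the glial cells that support neurons and react to injury. The members were the 9 genes whose symbol in the deposited table is Tgfb1, Tgfb2, Tgfb3, Tgfbr1, Tgfbr2, Smad2, Smad3, Smad7 or Tgfbi, and each symbol matched 1 of the 54532 genes. They comprise the ligands, both signalling receptors, the receptor-regulated Smads, the inhibitory Smad and a response gene. The cells, labelled astrocyte with no strain, age or culture detail, had received either NC siRNA or Ptbp1 siRNA, short duplex RNAs that direct the degradation of matching transcripts. NC is not spelled out in the labels. The table heads that group as the control, and its libraries are called controls below, those given Ptbp1 siRNA knockdowns. Each group had 2 libraries. No label ties them to separate cultures, and the p-values therefore reflect the spread between samples, which may be technical only.

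TGF-beta ligands are secreted as inactive complexes, stored in the extracellular matrix and released there by integrins and proteases. The active ligand joins the type II receptor to the type I receptor, which phosphorylates Smad2 and Smad3. These enter the nucleus with Smad4 and switch genes on and off, among them Smad7, which turns the receptors off again. In astrocytes the pathway is known for its part in glial scar formation and matrix production. Messenger RNA counts measure neither ligand release nor Smad phosphorylation.

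The promoters of the ligand genes Tgfb1 and Tgfb2 are shown because these ligands changed their order of abundance with the gene length used, as described further on, while their start regions differ in composition. Each run holds the 250 bases before the start, on the gene's strand, from RefSeq on GRCm38.p6. Tgfb1 is at chr7:25686752-25687001, plus strand, and Tgfb2 at chr1:186705990-186706239, minus strand. Capitals mark the TATA box letters TATAAA and the GC box letters GGGCGG, searched on both strands, so that the GC box also appears as CCGCCC.
Tgfb1: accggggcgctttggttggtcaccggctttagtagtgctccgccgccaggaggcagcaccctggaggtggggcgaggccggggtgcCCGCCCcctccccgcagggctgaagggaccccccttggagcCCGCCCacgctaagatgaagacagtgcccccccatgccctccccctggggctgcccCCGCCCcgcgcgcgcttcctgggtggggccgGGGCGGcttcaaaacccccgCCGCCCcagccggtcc
Tgfb2: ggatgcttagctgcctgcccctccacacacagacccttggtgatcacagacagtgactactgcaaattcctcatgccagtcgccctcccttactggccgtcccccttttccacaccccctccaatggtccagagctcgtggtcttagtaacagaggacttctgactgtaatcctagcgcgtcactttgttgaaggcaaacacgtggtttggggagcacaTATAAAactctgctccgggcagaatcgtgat
The Tgfb1 run held 5 GC boxes and no TATAAA, and 75.2% of its bases were G or C. The Tgfb2 run held 1 TATAAA, whose last base lies 26 bases before the start, and no GGGCGG, and 53.6% of its bases were G or C. Among 32851 promoter windows of the same length, 12.4% held TATAAA and 32.7% held GGGCGG. A match of letters is a description and does not show binding. Of the 9 members, 6 had a promoter in the RefSeq table.

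The libraries held 14557844 to 16009248 counts each, and 16368 genes passed the filter on low counts and were tested. Levels are CPM, counts scaled to the TMM-normalised library size, unless FPKM, fragments scaled also to gene length, is named, and fold changes are Ptbp1 siRNA over NC siRNA from edgeR's quasi-likelihood test with Benjamini-Hochberg adjustment over all tested genes. The targeted gene Ptbp1 stood at 300.4 and 295 CPM in the controls and at 203 and 196 CPM in the knockdowns, a log2 change of -0.58 (SE 0.063, adjusted p = 0.00127), so the knockdown was partial. The 15 astrocyte markers were each detected in at least 1 library, with Gfap at 768 to 924 CPM and a summed level of 2556 to 2704 CPM in the controls and 2335 to 2623 CPM in the knockdowns. Markers of other cells were present too, and over the 8 marker lists the ones at 0 in every library were Cldn5 of endothelial cells and Mobp of oligodendrocytes. The summed level of 15 fibroblast and pericyte markers, all detected, was 6182 to 6472 CPM in the controls and 5578 to 6567 CPM in the knockdowns. For 18 microglia and macrophage markers, all detected, it was 1278 to 1300 CPM in the controls and 1217 to 1295 CPM in the knockdowns. NC siRNA 2 stood apart in choroid plexus markers, at 498 CPM for 10 genes against 124 to 139 CPM in the other libraries. Most of that sum was Ttr, at 348 CPM there against 39 to 52 CPM in the other libraries. Other markers of the list rose with it. Enpp2 stood at 54.5 CPM there against 6.89 to 10.3 CPM, and Clic6 at 7.14 CPM against 0.939 to 1.37 CPM. Folr1 and Cldn2 were also highest there, as were Kcnj13, Kl and Prlr at very low levels. Aqp1 and Otx2 did not rise in this way, with Aqp1 at 43.1 CPM there against 32.7 to 44.2 CPM. Otx2 stood at 26.3 CPM there against 22.9 to 26.0 CPM. Several of these cell types also use the TGF-beta pathway, and the part of cell composition in the values of the members was not tested. In bulk RNA, fewer cells of a type and less RNA per cell cannot be told apart.

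All 9 members were expressed well above the filter, with 315 to 2868 counts per library, and none passed the test between the siRNAs. The background share of calls at an adjusted p under 0.05 was 0.0244% of tested genes, or 4 genes. The adjusted p was 1.00 for every member by edgeR, and the smallest unadjusted p was 0.160. With all libraries kept, 0 members had an unadjusted p under 0.05 by edgeR or DESeq2. Their median log2 change was -0.02, against 0.0004 over all genes tested. For the 8 members other than Tgfbi, the 95% intervals of the log2 change lay between -0.27 and 0.25, that is, between a fold of 0.830 and 1.19. These intervals bound the change in these libraries, and do not show that the members were equal between the groups. Without NC siRNA 2, the library that stood apart, the log2 changes of the members ran from -0.33 for Tgfbi to 0.08 for Smad2. The value of Tgfbi was -0.35 without Ptbp1 siRNA 1, but 0.002 without NC siRNA 1 and -0.01 without Ptbp1 siRNA 2.

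**Figure D1:**
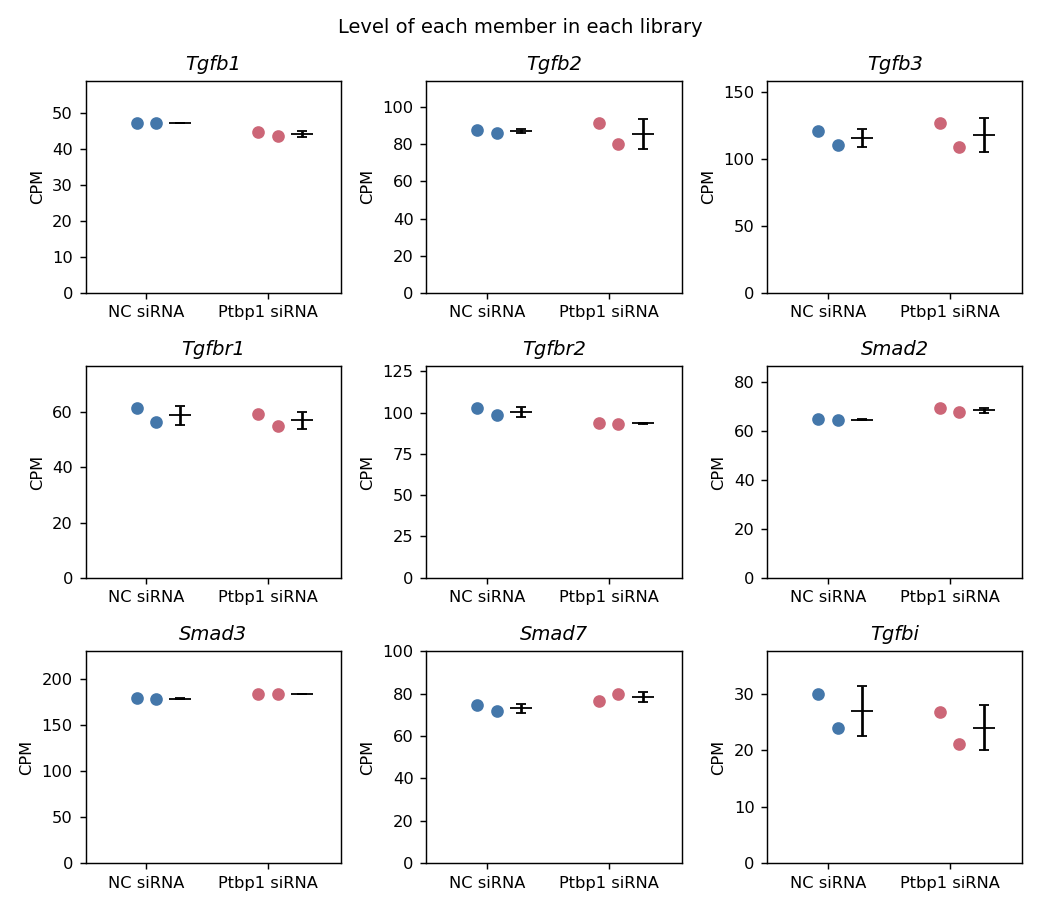
Level of each member in CPM (vertical axis, from 0) in each library of NC siRNA and Ptbp1 siRNA, with the mean and SD of the 2 libraries beside the points. Tgfb1 and Tgfbr2 were lower and Smad2, Smad3 and Smad7 higher in both Ptbp1 siRNA libraries, by small amounts, and the other members overlapped.

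Among the ligands, Tgfb3 had the highest messenger RNA level per length, and no ligand passed the test. Tgfb1, the ligand released in most injured tissues (ENSMUSG00000002603, GRCm38 chromosome 7, 25687002 to 25705077, plus strand), stood at 47.0 CPM in both NC siRNA libraries. It was 44.7 and 43.4 CPM in the Ptbp1 siRNA libraries, so the groups did not overlap. Its log2 change was -0.09 (SE 0.082, 95% interval -0.27 to 0.08). The closeness of its NC siRNA libraries, with an SD of 0.011 CPM, is below the 1.74 CPM that counting error alone gives at this depth, so that SD understates the error.

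Tgfb2, a ligand that reaches its receptors with the help of the co-receptor betaglycan (ENSMUSG00000039239, chromosome 1, 186622792 to 186705989, minus strand), was at 87.96 and 86.2 CPM in the controls. With Ptbp1 siRNA it was 91.3 and 79.99 CPM, values on either side of both controls. Its log2 change was -0.02 (SE 0.077), and it turned to 0.07 without Ptbp1 siRNA 2. Tgfb3 (chromosome 12, 86056745 to 86079041, minus strand, ENSMUSG00000021253), the ligand known for its role in palate fusion, stood at 120.3 and 111 CPM in the controls. It was 126 and 108 CPM in the knockdowns, where both the highest and the lowest of its values lay. The log2 change of Tgfb3 was 0.02 (SE 0.080), and it became -0.04 without NC siRNA 2 and -0.09 without Ptbp1 siRNA 1.

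Reads of Tgfb2 and Tgfb3 could in part come from genes on the opposite strand, since no source used here gives the strand setting of the counting. In the GENCODE M21 annotation, also on GRCm38, the antisense gene Gm29491 shares 124 exon bases with Tgfb2 and had 0 to 2 counts per library. Gm37804 and Gm48008 share 163 and 257 exon bases with Tgfb3 and had 0 to 9 counts per library. The protein-coding gene Ttll5 overlaps Tgfb3 on the opposite strand with 0 shared exon bases. Stretches of 50 bases that also occur in transcripts of other genes made up 0.586% of Tgfbr2, 0.278% of Tgfb1, 0.0262% of Tgfbi and none of the other 6 members.

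The receptors were both expressed, and Tgfbr2 stood lower in each Ptbp1 siRNA library without passing the test. Tgfbr1, the type I receptor kinase that phosphorylates the Smads (ENSMUSG00000007613, chromosome 4, 47353222 to 47414931, plus strand), stood at 61.3 and 56.3 CPM in the controls and at 59.2 and 54.8 CPM in the knockdowns. Its groups overlapped, with a log2 change of -0.05 (SE 0.081). That value was 0.02 without NC siRNA 1 and 0.01 without Ptbp1 siRNA 2. Tgfbr2, the type II receptor that binds the ligand first (ENSMUSG00000032440, chromosome 9, 116084293 to 116175360, minus strand), was at 102 and 98.3 CPM in the controls. With Ptbp1 siRNA its libraries were at 93.8 and 93.3 CPM, both below the controls. The log2 change of Tgfbr2 was -0.10 (SE 0.069, 95% interval -0.25 to 0.04) with an unadjusted p of 0.160 and an edgeR adjusted p of 1.00.

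All 3 Smads among the members lay higher in both Ptbp1 siRNA libraries than in both NC siRNA libraries, with fitted folds of 1.06, 1.03 and 1.07 for Smad2, Smad3 and Smad7, and none passed. Of all tested genes, 15.6% lay higher in both Ptbp1 siRNA libraries in this way. Smad2 (ENSMUSG00000024563, chromosome 18, 76241580 to 76305731, plus strand), a receptor-activated Smad, stood at 64.9 and 64.5 CPM in the controls and 69.3 and 67.8 CPM in the knockdowns. Its log2 change was 0.08 (SE 0.073, 95% interval -0.07 to 0.24). Smad3 (ENSMUSG00000032402, chromosome 9, 63646767 to 63757994, minus strand), the receptor-activated Smad that binds DNA directly, had the most counts of the members. It stood at 179 and 178 CPM in the controls and at 184 CPM in both Ptbp1 siRNA libraries, a log2 change of 0.04 (SE 0.063). Smad7 (ENSMUSG00000025880, chromosome 18, 75367529 to 75395935, plus strand), the inhibitory Smad that TGF-beta itself induces, stood at 74.7 and 71.6 CPM in the controls. Its Ptbp1 siRNA libraries were at 76.7 and 80.1 CPM, a log2 change of 0.10 (SE 0.072, 95% interval -0.05 to 0.25). The SDs of Smad3 within a group, 0.873 and 0.208 CPM, were below the 3.39 CPM expected from counting error.

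In all, 5 of the 9 members, or 55.6%, had groups that did not overlap, 3 higher and 2 lower in the knockdowns, where 31.5% of all tested genes had such groups, 15.6% higher and 15.9% lower. The direction of every member was kept in each of 7 alternatives that retained all libraries, among them 2 other scalings, DESeq2 and limma on FPKM. Over the 4 fits with a library left out, 30 member values kept their direction and 6 reversed. In the authors' deposited table the members' log2 changes ran from -0.17 for Tgfbi to 0.10 for Smad7, with a smallest unadjusted p of 0.284. The DESeq2 fit gave -0.17, 0.10 and 0.284 as well, so the deposited values are not a separate check.

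**Figure D2:**
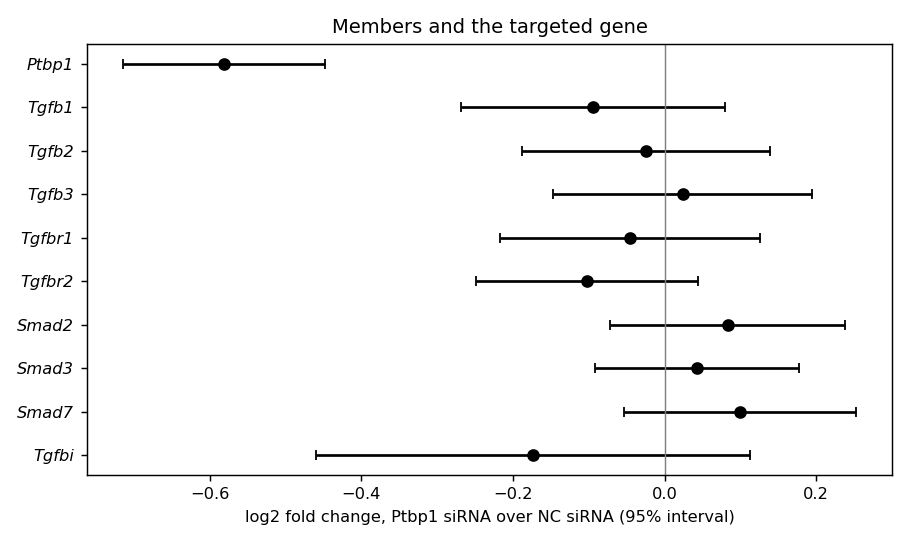
Log2 change of Ptbp1 siRNA over NC siRNA (horizontal axis) for Ptbp1 and the 9 members, with bars for the 95% interval of the edgeR fit. Every interval of a member includes 0, and that of Ptbp1, from -0.71 to -0.45, does not.

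Tgfbi, which encodes a secreted matrix protein induced by TGF-beta, had the fewest counts and the widest range of the members. Its position is chromosome 13, 56609523 to 56639562, plus strand (ENSMUSG00000035493). It stood at 30.1 and 23.9 CPM in the controls and at 26.8 and 21.1 CPM in the knockdowns, and the groups overlapped. The difference between the libraries of a group, 0.33 in log2 between the NC siRNA libraries and 0.34 between the Ptbp1 siRNA libraries, exceeded the log2 change between the groups, which was -0.17 (SE 0.14, 95% interval -0.46 to 0.11). The SDs of 4.38 and 4.001 CPM were above the 1.32 CPM that counting error gives. Without NC siRNA 1 the log2 change was 0.002 and without Ptbp1 siRNA 2 it was -0.01. It was -0.33 without NC siRNA 2 and -0.35 without Ptbp1 siRNA 1. All of these fits left 1 library in a group.

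The genes whose level followed Tgfbi most closely over the 4 libraries were sought among 15138 other genes with a mean of at least 1 CPM, by the Euclidean distance between log2 CPM profiles centred on their means. They were Car8, a carbonic anhydrase relative, at a distance of 0.02, Pkmyt1, a kinase that holds back entry into mitosis, at 0.03, and the long noncoding RNA AU020206 at 0.04. Their mean levels in the controls were 4.40, 10.7 and 28.4 CPM, and none passed the test between the groups (edgeR adjusted p = 1.00 each). With 4 libraries and this many genes, profiles this close are a description of these libraries.

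Levels can be compared between genes only per length. On the FPKM scale the order in the controls ran from Tgfb3 at 33.95 ± 2.03 and Smad3 at 32.0 ± 0.148 (mean ± SD, n = 2) to Tgfbi at 7.12 ± 1.15. Smad2 followed at 18.1 ± 0.0707, Smad7 at 16.1 ± 0.478, Tgfb2 at 14.97 ± 0.205, Tgfbr2 at 12.2 ± 0.356, Tgfb1 at 9.28 ± 0.00044 and Tgfbr1 at 8.96 ± 0.539. Over the 4 libraries the FPKM ranges of the neighbours Tgfb3 and Smad3 overlapped, and so did those of Tgfb1 and Tgfbr1. The ranges of the other neighbours did not overlap, although Smad7, with a lowest value of 15.8, and Tgfb2, with a highest value of 15.7, lay side by side. Tgfb3 stood at the 89.8th percentile of tested genes by FPKM and Tgfbi at the 57.0th.

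This order depended on the length that stands for each gene. For 8 members the deposited length equals the exons of all transcripts of the gene merged together in GENCODE M21, which for Tgfb1 is 5042 bases and for Tgfbr2 8187 bases. Their principal transcripts, the main protein-coding forms by the APPRIS annotation, are 2175 and 3476 bases long. With counts divided by the principal transcript length, a choice made after seeing the data, the level in the controls was 21.6 counts per length and library size for Tgfb1 against 16.99 for Tgfb2. Their ranges over the libraries, 19.9 to 21.6 and 15.6 to 17.8, did not overlap, so the order of these ligands was the opposite of that by FPKM. Tgfbr2 stood at 28.8 and Tgfbr1 at 10.2 on this scale, and Smad3 at 35.0 and Tgfb3 at 34.1 remained the highest. The deposited table cannot say which transcripts the reads came from.

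Smad2 was left out of that rescaling because its deposited gene model is shorter than that of GENCODE M21. The deposited model ends at 76305731 and has 3549 exon bases, whereas the M21 gene ends at 76310963 with 8781 exon bases. Reads that fall only in the longer part would not be in the deposited count, and the level of Smad2 relative to the other members is uncertain for that reason. The fold change of Smad2 rests on the same model in every library.

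By FPKM, the share of each ligand in the summed ligand messenger RNA varied by less than 3 percentage points over the 4 libraries. Tgfb3 made up 59.2% and 57.4% of the summed ligand level in the controls and 60.3% and 58.8% in the knockdowns. The share of Tgfb2 was 25.3% and 26.2% in the controls and 25.4% in both Ptbp1 siRNA libraries. Tgfb1 held 15.5% and 16.4% in the controls and 14.3% and 15.8% in the knockdowns. The shares of all 3 ligands overlapped between the groups, with exact two-sided permutation p-values of 0.667, 1.00 and 0.667 for Tgfb1, Tgfb2 and Tgfb3. With 2 libraries a group the smallest p such a test can give is 0.333, so it cannot pass a threshold of 0.05. With the principal transcript length the shares in the NC siRNA libraries averaged 29.7%, 23.4% and 46.9% for Tgfb1, Tgfb2 and Tgfb3.

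**Figure D3:**
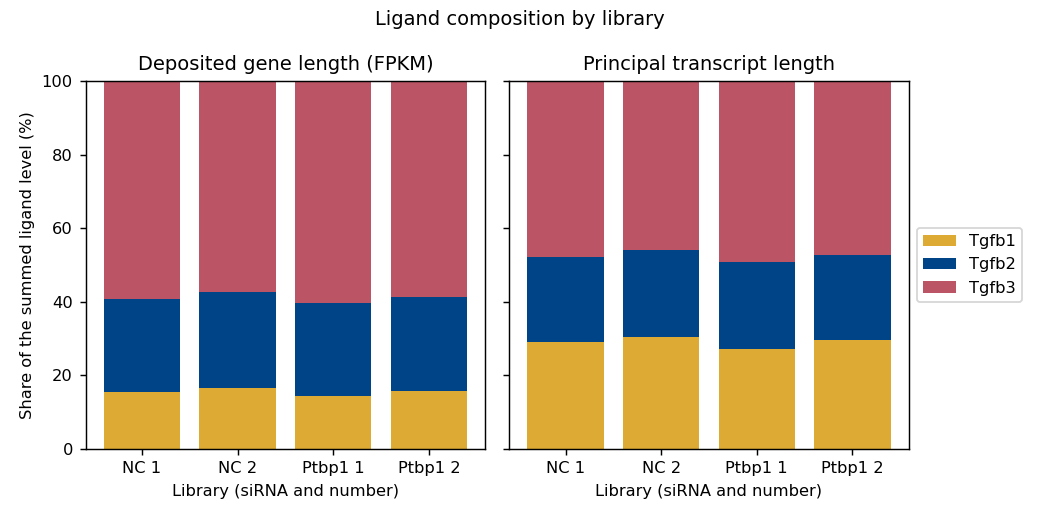
Share of Tgfb1, Tgfb2 and Tgfb3 in the summed ligand level of each library (vertical axis, percent), by FPKM on the left and with counts divided by the principal transcript length on the right. Tgfb3 is the largest part in every bar, and Tgfb1 is the smallest by FPKM but exceeds Tgfb2 with the principal transcript length.

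The balance between partners was compared in the same way. Tgfbr1 made up 42.8% and 41.8% of the summed receptor FPKM in the controls and 44.2% and 42.4% in the knockdowns, and the groups overlapped (exact permutation p = 0.667). Smad2 made up 36.2% of the summed FPKM of Smad2 and Smad3 in both NC siRNA libraries and 37.1% and 36.5% in the knockdowns. These groups did not overlap, and the exact permutation p was 0.333, the smallest the design allows.

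Around the members, 7 lists of pathway genes were read in the same fit. They held 159 genes, of which 155 were tested, and 0 passed the edgeR test in either direction, as with DESeq2 and with limma on FPKM. An unadjusted p under 0.05 was reached by 10 genes, or 6.45%, where 3.98% of all tested genes reached that level. All 10 were lower in the knockdowns, a direction in which 2.29% of all tested genes reached that level. The groups of 41 list genes, or 26.5%, did not overlap, against 31.5% of all tested genes. Genes of a pathway are not independent of each other. The genes not tested were Itgb6, Foxh1, Acvr1c and Bmp5, with at most 9 counts in a library.

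Storage and activation of the latent ligand was the first of these lists, with 20 tested genes, a median log2 change of -0.07 and 17 negative values. Thbs1, whose product thrombospondin can release the ligand, stood at 1397 ± 37.5 CPM in the controls and 1452 ± 91.96 CPM in the knockdowns (mean ± SD, n = 2). The integrin subunit gene Itgb1 stood at 838 ± 0.736 and 826 ± 70.7 CPM. Mmp14, a membrane protease gene, was at 268 ± 16.3 and 236 ± 20.7 CPM, with a log2 change of -0.18 (SE 0.073), and the fibrillin gene Fbn1 at 166 ± 29.1 and 145 ± 18.2 CPM, with one of -0.20 (SE 0.10). The log2 change of Fbn1 was -0.36 without NC siRNA 2, a fit with 1 control library. Itgb6, an integrin subunit that activates the ligand in epithelia, had 0 or 1 count per library.

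Co-receptors and decoys gave a median log2 change of -0.04 over 16 genes, 10 of them negative. Bgn, the gene of the ligand-binding proteoglycan biglycan, stood at 448 ± 27.0 CPM in the controls and 403 ± 52.7 CPM in the knockdowns. The secreted protease gene Htra1 was at 143 ± 2.85 and 126 ± 11.7 CPM, with a log2 change of -0.18 (SE 0.074). Acvrl1, a type I receptor of endothelial cells, had a log2 change of -0.62 (SE 0.26) at a level of 5.06 ± 0.0800 and 3.30 ± 0.686 CPM. Smad cofactors and regulators had a median of 0.005 over 16 genes, 8 of them negative, which became -0.001 with no scaling factor. Among these, Strap stood at 260 ± 4.26 and 264 ± 15.1 CPM, and Fkbp1a, which shields the type I receptor, at 269 ± 4.68 and 264 ± 9.87 CPM. Dab2, an adaptor gene, had a log2 change of -0.23 (SE 0.082), and Trim33, a ubiquitin ligase gene, one of -0.13 (SE 0.071).

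Feedback inhibitors and corepressors, the list to which Smad7 belongs by function, had a median log2 change of 0.04 over 15 genes, 11 of them positive. The corepressor gene Ski stood at 432 ± 15.6 CPM in the controls and 413 ± 5.09 CPM in the knockdowns. Pmepa1, a TGF-beta-induced inhibitor of Smad activation, was at 365 ± 6.85 and 342 ± 9.80 CPM, with a log2 change of -0.09 (SE 0.062). Wwp1, a ubiquitin ligase gene, had a log2 change of -0.12 (SE 0.071). No gene of this list had an unadjusted p under 0.05 by edgeR.

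Response genes of the pathway lay on both sides of 0, with a median log2 change of -0.002 over 45 tested genes, 22 positive and 23 negative. Acta2, the smooth muscle actin gene, stood at 3525 ± 0.340 CPM in the controls and 3651 ± 389 CPM in the knockdowns, and the matricellular gene Cyr61 at 1016 ± 18.7 and 1019.9 ± 10.5 CPM. The type I collagen genes had the smallest p-values of the list. In the separate libraries Col1a1 stood at 725, 606, 578 and 463 CPM in NC siRNA 1, NC siRNA 2, Ptbp1 siRNA 1 and Ptbp1 siRNA 2, with a log2 change of -0.35 (SE 0.094, unadjusted p = 0.0016, edgeR adjusted p = 1.00). Col1a2 had one of -0.25 (SE 0.075, unadjusted p = 0.00412, edgeR adjusted p = 1.00). Both are also among the fibroblast and pericyte markers, of which 10 of 14 tested had a negative log2 change, with a median of -0.13. Such a tilt was not particular to that list. Negative were also 11 of 14 astrocyte markers, with a median of -0.08, and 11 of 17 microglia and macrophage markers, with one of -0.06. Among neuronal markers it was 5 of 9 and among ependymal markers 5 of 10. For oligodendrocyte lineage markers it was 7 of 9 and for endothelial markers 5 of 7. For choroid plexus markers, in which NC siRNA 2 stood apart, it was 7 of 7. The summed level of the fibroblast and pericyte markers, given above, holds 3376 to 3926 CPM of Acta2 alone. The part of those cells was not tested. Without NC siRNA 2 the log2 changes of Col1a1 and Col1a2 were -0.48 and -0.30. Without Ptbp1 siRNA 1 they were -0.52 and -0.37. They were smaller without NC siRNA 1, at -0.22 and -0.19, and without Ptbp1 siRNA 2, at -0.20 and -0.14. Both genes passed the edgeR test with no filter on low counts. That fit called 50 genes, against 4 in the main test, and took each gene's spread from the trend over all genes. Of the other response genes, 2 had an unadjusted p under 0.05, Col5a1 and Loxl2, named after their values were seen, with log2 changes of -0.18 (SE 0.071) and -0.17 (SE 0.074). The log2 change of Col5a1 was -0.27 without NC siRNA 2, a fit with 1 control library.

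The arm of bone morphogenetic proteins and activins, which share Smad4 with TGF-beta, had a median log2 change of 0.04 over 29 genes, 16 of them positive. Its target genes Id3 and Id1 stood at 236 ± 16.9 and 106 ± 8.89 CPM in the controls and at 235 ± 17.3 and 115 ± 7.15 CPM in the knockdowns. The activin receptor gene Acvr1b had a log2 change of -0.23 (SE 0.099). Chrd, the gene of the antagonist chordin, had one of 0.76 (SE 0.42) at only 1.06 ± 0.0866 and 1.80 ± 0.274 CPM. Kinases and adaptors of signalling outside the Smads had a median of -0.02 over 24 genes, 19 of them negative. Akt1 stood at 237 ± 5.08 CPM in the controls and 228 ± 1.76 CPM in the knockdowns. Traf6, an adaptor gene, had a log2 change of -0.24 (SE 0.097), and Tab1, its partner in activating the kinase TAK, one of 0.14 (SE 0.081).

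**Figure D4:**
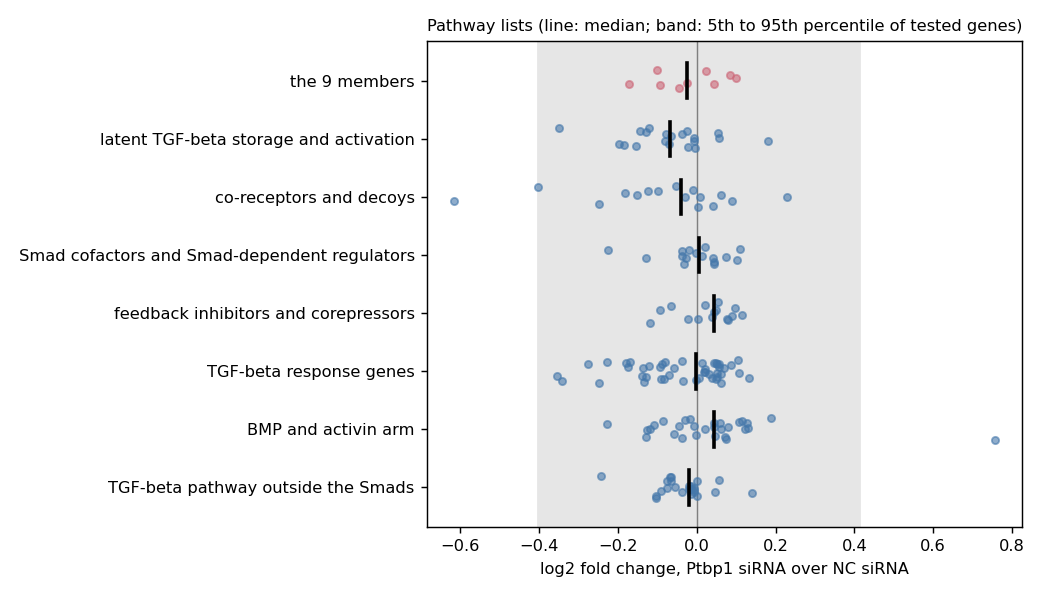
Log2 change of Ptbp1 siRNA over NC siRNA (horizontal axis) for the 9 members and for the tested genes of each pathway list, 1 point a gene, with a black line at the median. The grey band spans the 5th to 95th percentile of all tested genes, from -0.40 to 0.41, and holds all 9 members.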

How the data were processed

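RNA of mouse astrocytes treated with NC siRNA or Ptbp1 siRNA was sequenced, with 2 libraries for each siRNA; SMARTER mRNA libraries were made from total RNA, per the labels. The authors deposited counts per gene and library, FPKM, group means of scaled counts (a signal, not used), and a log2 fold change with p-value and adjusted p-value. Per the submitters' processing notes, the builds are GRCm38 and mm10, names of 1 assembly. Not given in the sources used here are aligner, counter, strand setting, annotation release and the authors' test.

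The test on counts was that of edgeR 4.0.16 under R 4.3.3 (quasi-likelihood, TMM, filterByExpr, group as the only term, Benjamini-Hochberg adjustment, two-sided), with 2 residual and 14.0 prior degrees of freedom. Standard errors and 95% intervals come from the quasi-F statistic. DESeq2 1.42.0 and limma 3.58.1 on log2(FPKM + 1) were alternatives. The edgeR step was tested on simulated data. The members and lists were chosen with earlier results of these data known. Named list genes are drawn from the 2 of highest mean FPKM and the 2 of smallest p per list. Outside that rule, Col5a1 and Loxl2 were named after their values were seen, and Itgb6, Foxh1, Acvr1c and Bmp5 as untested genes. The 95% intervals cover counting error and the fitted spread between libraries, and the counts may include PCR copies.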

Additional observations from a re-analysis of the deposited data

How the results depend on the processing

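No member passed an adjusted p of 0.05 under any of the 11 alternatives. The total of genes called was 4 in the main test, 0 with limma on log2(FPKM + 1), 50 with no filter on low counts and 34 to 75 with a library left out. The number of pathway list genes called, 0 in the main test, was 2 with no filter and 0 to 4 with a library left out. The prior degrees of freedom became infinite with no filter and with a library left out, so each gene's spread came from the trend over all genes. The replicate number as a block gave 36 genes called and 2 pathway list genes, Col1a1 and Col1a2 (adjusted p = 3.66e-06 and 0.00446 by edgeR), and no member. The deviations of same-numbered libraries correlated at 0.0974 over tested genes, and the labels tie the numbers to no batch, so the numbers were not taken as pairs. Over the 4 fits with a library left out, 30 of 36 member values kept their direction. The log2 fold change ran from -0.12 to 0.069 for Tgfb2, -0.092 to 0.13 for Tgfb3, -0.11 to 0.016 for Tgfbr1 and -0.35 to 0.0023 for Tgfbi.

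The mean share of a ligand in the control libraries depended on the unit. By CPM, with no length, it was 18.9% for Tgfb1, 34.9% for Tgfb2 and 46.2% for Tgfb3, and with the principal transcript length 29.7%, 23.4% and 46.9%, against 15.96%, 25.7% and 58.3% by FPKM. Tgfbr1 made up 36.9% of the receptor CPM and 26.1% with the principal transcript length, and Smad2 26.6% of the CPM of Smad2 and Smad3. Counts divided by the deposited gene length gave the FPKM shares. The difference of the Tgfb2 share, Ptbp1 siRNA minus NC siRNA, was -0.777 to 0.123 percentage points with a library left out.

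With 2 libraries a group, the depth of 315 to 2868 counts gives counting errors of 0.028 to 0.074 in the log2 fold change of the members, below the fitted standard errors of 0.063 to 0.14.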
